A study of Mus musculus with 8 samples.

Results

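Secondary (specific) granules are one of the sets of protein stores that neutrophils build as they mature, and 10 genes whose products are packed in them or go with them were followed: *Ltf*, *Camp*, *Ngp*, *Lcn2*, *Cd177*, *Chil3*, *Hp*, *Anxa1*, *Itgb2l* and *Ceacam10*. They were found by their symbols in the deposited table of counts, each in 1 of its 54188 gene rows, and all 10 were among the 17650 genes with enough counts to test. The RNA came from sanroque mice, which are homozygous for the san allele of Roquin, a protein that restrains the mRNAs of immune regulators, and which develop a lupus-like disease on the C57BL/6 background. The mice were about 20 weeks of age and were labelled female. CD11b+Gr-1hi cells, labelled G-MDSC, and CD11b+Gr-1lo cells, labelled M-MDSC, were sorted by flow cytometry from the spleen (SP) and bone marrow (BM), with 2 libraries for each of the 4 groups. SP Gr-1hi cells gave libraries 5 and 6, SP Gr-1lo cells 7 and 8, BM Gr-1hi cells 9 and 10, and BM Gr-1lo cells 11 and 12. Every group carried the same mutation, so no comparison here is with wild-type cells, and the labels do not say which libraries share a mouse.

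Neutrophil granules form in order. Primary granules, which hold myeloperoxidase and serine proteases, are filled at the promyelocyte stage, and the transcripts for secondary granule proteins come on later, at the myelocyte and metamyelocyte stages, and fade in the circulating cell, which keeps the protein. The transcription factor C/EBP epsilon is needed for secondary granule genes, and their transcripts are therefore used as a mark of late granulocyte maturation in the marrow. Monocytes make few of them, with exceptions such as *Chil3*.

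Promoter sequence was available from RefSeq (GRCm38.p6) for 9 of the 10 genes, all except *Hp*, as windows from 250 bases before to 50 bases after the start of transcription. The C/EBP motif searched was TTGCNNAA and the PU.1 motif GAGGAA, on both strands and with overlaps allowed. The C/EBP letters were present in 4 of the 9 genes, namely *Ltf*, *Ngp*, *Lcn2* and *Anxa1*, while 12.2% of all 27025 genes in the same table held them in at least 1 window. The PU.1 letters were present in 6 of the 9, against 31.3% of all genes. These matches describe the letters only. The upstream stretches of 5 genes are printed because they stand for the patterns seen below: *Ltf* and *Ngp* for the high-level genes with the largest loss of subset contrast in spleen, *Cd177* and *Ceacam10* as chromosomal neighbours that are both high in Gr-1hi cells, and *Chil3* as the gene whose subset comparison passed in neither tissue. Capitals mark the C/EBP and PU.1 letters, each stretch reads 5′ to 3′ on the gene's strand, and each stops before the outermost exon annotated in GENCODE M21. The stretches lie at chr9:111019042-111019270 (+ strand), chr9:110419558-110419746 (+), chr7:24760312-24760561 (-), chr7:24776917-24777166 (+) and chr3:106167565-106167814 (-).
Ltf: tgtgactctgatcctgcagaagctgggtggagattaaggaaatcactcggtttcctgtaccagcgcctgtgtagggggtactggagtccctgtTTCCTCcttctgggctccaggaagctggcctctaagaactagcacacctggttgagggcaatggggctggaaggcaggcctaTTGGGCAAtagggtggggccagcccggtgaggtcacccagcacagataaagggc
Ngp: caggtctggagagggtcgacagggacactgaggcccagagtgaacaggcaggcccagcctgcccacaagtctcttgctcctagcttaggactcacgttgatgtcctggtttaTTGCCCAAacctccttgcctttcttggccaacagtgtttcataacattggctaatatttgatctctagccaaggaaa
Cd177: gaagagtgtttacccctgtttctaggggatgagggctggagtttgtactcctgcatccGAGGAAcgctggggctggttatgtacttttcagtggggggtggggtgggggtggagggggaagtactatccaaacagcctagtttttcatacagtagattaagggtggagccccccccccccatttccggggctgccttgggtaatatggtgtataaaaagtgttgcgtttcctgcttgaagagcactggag
Ceacam10: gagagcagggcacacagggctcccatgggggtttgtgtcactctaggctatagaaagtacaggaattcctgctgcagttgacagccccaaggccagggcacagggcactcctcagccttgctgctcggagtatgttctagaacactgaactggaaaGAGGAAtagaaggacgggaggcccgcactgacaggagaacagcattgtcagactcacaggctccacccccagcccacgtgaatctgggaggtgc
Chil3: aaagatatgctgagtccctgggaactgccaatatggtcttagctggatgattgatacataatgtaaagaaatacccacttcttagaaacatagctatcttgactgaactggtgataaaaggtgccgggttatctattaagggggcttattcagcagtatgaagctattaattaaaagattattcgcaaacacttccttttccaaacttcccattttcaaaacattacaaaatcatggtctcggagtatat
In *Ltf* the C/EBP letters (TTGGGCAA) begin 75 bases before the RefSeq start and the PU.1 letters 157 bases before it. *Ngp* holds C/EBP letters 138 bases before its start, and a further match 11 bases before the start lies beyond the printed stretch. *Cd177* and *Ceacam10* hold PU.1 letters only, 192 and 94 bases before their starts, and *Chil3* holds neither motif. Of the genes not printed, *Camp* also holds neither motif, *Itgb2l* holds PU.1 letters only, and *Lcn2* and *Anxa1* hold both. Absence of both motifs is thus not particular to *Chil3*.

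Depth ranged from 33453580 to 68316154 counts per library, so that 3 counts, the most that a count of 0 allows, came to between 0.0348 and 0.124 CPM (counts scaled to the library total after TMM normalization) for counting error only. *Ly6g*, the granulocyte antigen that the Gr-1 antibody binds best, followed the labels of the gate. It lay between 330 and 801 CPM in Gr-1hi libraries and between 3.07 and 8.23 CPM in Gr-1lo libraries. *Csf1r* encodes the monocyte receptor CD115, which was not part of the gate, and was higher in every Gr-1lo library than in every Gr-1hi library. Its mean was 319 CPM in SP Gr-1hi and 709 CPM in SP Gr-1lo cells. The paper's flow cytometry of spleen cells gave the opposite order for the protein, with CD115 high on Gr-1hi and low on Gr-1lo cells. Against the female label, *Ddx3y*, a gene of the Y chromosome, was read at 33.7 to 82.6 CPM in every library except library 5, while *Xist*, which female cells express, reached 12032 counts in library 5 and 9898 in library 7, with 5 or fewer in each of the others. Libraries 5 and 7, both from spleen, therefore stand apart, and library 7 read both genes. Since no BM library read *Xist* above 5 counts, sex is partly confounded with tissue. This holds for every comparison of SP with BM and for the interaction. By these genes, library 5, with 0 counts of *Ddx3y*, did not share a mouse with any BM library. Results are also given without libraries 5 and 7. The SP Gr-1hi pair also agreed least of the 4 pairs. The chi-square per degree of freedom between its libraries was 66.7, against 18.9 to 21.3 in the other 3 groups.

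The 10 genes together took 6.02% and 6.71% of all counts in the BM Gr-1hi libraries, 3.31% and 5.42% in SP Gr-1hi, 1.57% and 1.36% in SP Gr-1lo, and 0.934% and 0.787% in BM Gr-1lo. The order BM Gr-1hi, SP Gr-1hi, SP Gr-1lo, BM Gr-1lo, with no overlap between neighbouring groups, was followed by 8 of the 10 genes. The exceptions were *Hp*, whose Gr-1lo libraries overlapped between tissues, and *Chil3*, whose pair of SP Gr-1hi libraries spanned the range of the other groups. How many of all genes followed the whole order was not counted. For its single steps, 31.9% of all genes tested were lower in SP Gr-1hi than in BM Gr-1hi without overlap. Without overlap, 40.6% were higher in SP Gr-1hi than in SP Gr-1lo, and 27.1% higher in SP Gr-1lo than in BM Gr-1lo. Among the members, spleen differed from marrow in opposite directions in the Gr-1hi and Gr-1lo cells for most of the set. In bulk libraries, fewer cells of a type and less RNA per cell cannot be told apart.

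**Figure D1:**
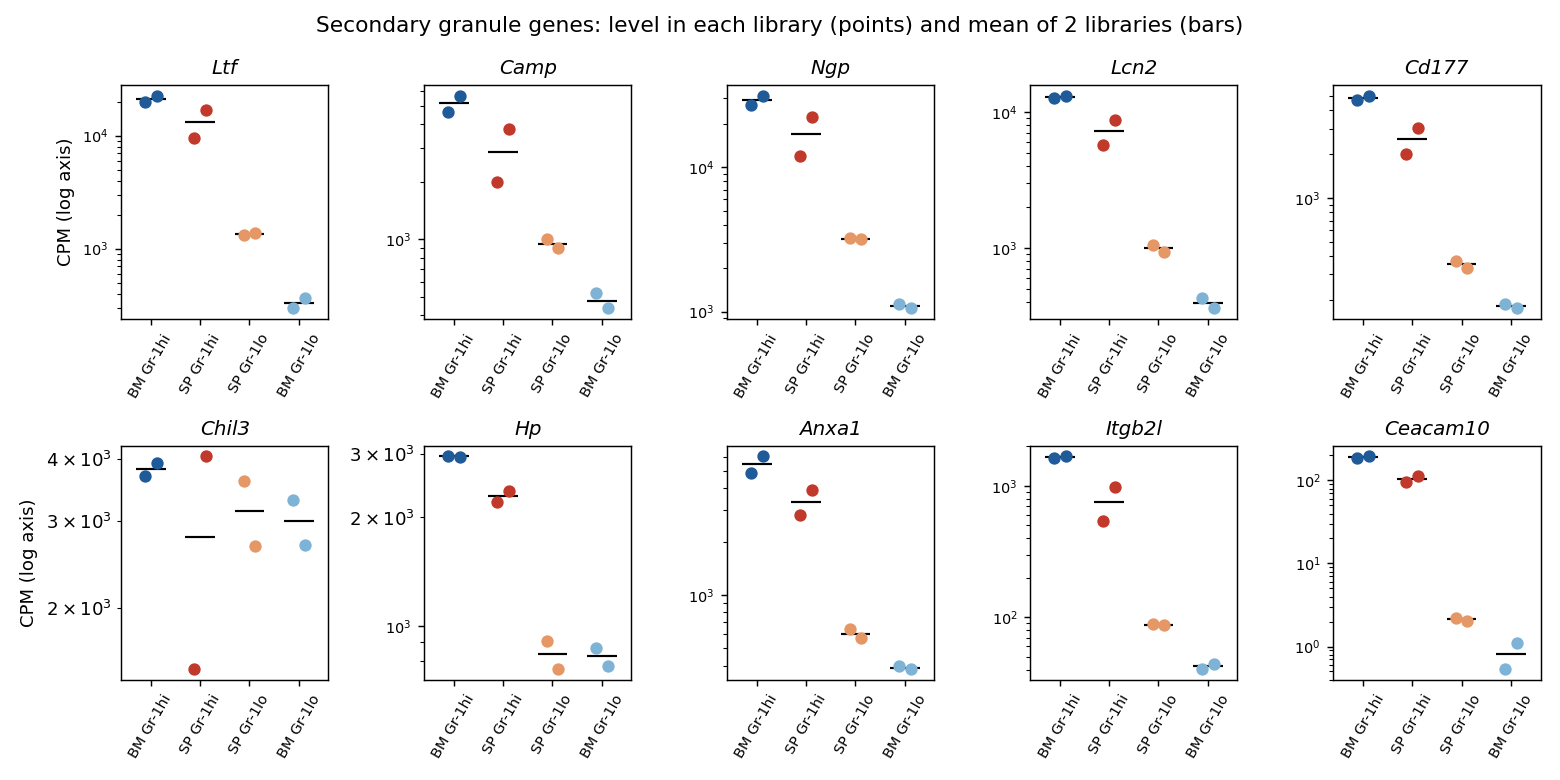
Level of each of the 10 secondary granule genes in CPM (log axis) in the 4 groups, with 1 point per library and a bar at the mean of 2 libraries. In 8 panels the groups descend from BM Gr-1hi to BM Gr-1lo without overlap, and *Chil3* has its lowest point, 1508 CPM, in an SP Gr-1hi library.

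Among the proteins that bind iron or haem iron, *Ltf* (ENSMUSG00000032496, chromosome 9 from 111019271 to 111042767) encodes lactoferrin, the iron-binding protein by which secondary granules are usually defined. It measured 19965 and 22640 CPM in BM Gr-1hi, 9602 and 16937 CPM in SP Gr-1hi, 1314 and 1372 CPM in SP Gr-1lo, and 295 and 365 CPM in BM Gr-1lo. The SP Gr-1lo libraries were close to each other and 4.07-fold above BM Gr-1lo (log2 fold change, FC, 2.02, SE 0.25, adjusted p = 0.00270), the largest tissue difference among the 10 genes in either subset. In Gr-1hi cells the log2 FC of SP against BM was -0.68 (SE 0.24, adjusted p = 0.0588), which did not pass. Adjusted p-values come from quasi-likelihood tests in edgeR, corrected by Benjamini-Hochberg over the 17650 genes.

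*Lcn2* (ENSMUSG00000026822, chromosome 2 from 32384633 to 32388252) encodes lipocalin 2, which withholds iron from bacteria by binding their siderophores. It measured 12537 and 13139 CPM in BM Gr-1hi, 5691 and 8702 CPM in SP Gr-1hi, 1062 and 935 CPM in SP Gr-1lo, and 429 and 361 CPM in BM Gr-1lo. It was lower in spleen in Gr-1hi cells (log2 FC -0.84, SE 0.19, adjusted p = 0.0120, 1.78-fold) and higher in spleen in Gr-1lo cells (1.34, SE 0.19, adjusted p = 0.00556). *Hp* (ENSMUSG00000031722, chromosome 8 from 109575128 to 109579172) encodes haptoglobin, the haemoglobin-binding protein that liver secretes into plasma and that neutrophils also store. Its levels were 2958 and 2954 CPM in BM Gr-1hi, 2207 and 2368 CPM in SP Gr-1hi, 908 and 757 CPM in SP Gr-1lo, and 870 and 775 CPM in BM Gr-1lo. *Hp* fell by 0.37 on the log2 scale in SP Gr-1hi cells (SE 0.11, adjusted p = 0.0367), while in Gr-1lo cells the tissues overlapped (0.02, 95% confidence interval -0.24 to 0.28, adjusted p = 0.952), with a sign that depended on the scaling. Its contrast between subsets was modest, 2.75-fold in SP and 3.59-fold in BM.

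The 2 genes of the cathelicidin and cystatin-like group lie on chromosome 9 with *Ltf*. *Ngp* (ENSMUSG00000032484, from 110419747 to 110423012) encodes neutrophilic granule protein, a relative of the cathelicidins, and was the most abundant of the set. It measured 26964 and 31326 CPM in BM Gr-1hi, 11941 and 22244 CPM in SP Gr-1hi, 3229 and 3178 CPM in SP Gr-1lo, and 1130 and 1052 CPM in BM Gr-1lo. It was lower in SP Gr-1hi (log2 FC -0.77, SE 0.25, adjusted p = 0.0446) and 2.94-fold higher in SP Gr-1lo (1.55, SE 0.25, adjusted p = 0.00996). *Camp* (ENSMUSG00000038357, from 109847379 to 109849617) encodes the only cathelicidin of the mouse, an antimicrobial peptide precursor. Its levels were 4629 and 5654 CPM in BM Gr-1hi, 1985 and 3766 CPM in SP Gr-1hi, 998 and 897 CPM in SP Gr-1lo, and 521 and 434 CPM in BM Gr-1lo. *Camp* fell by 0.84 on the log2 scale in SP Gr-1hi (SE 0.27, adjusted p = 0.0455), and its log2 FC of 0.99 in Gr-1lo cells (SE 0.27, adjusted p = 0.0873) did not pass although the libraries did not overlap.

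The surface and adhesion group holds *Cd177*, *Itgb2l* and *Ceacam10*. *Cd177* (ENSMUSG00000052212, chromosome 7 from 24743983 to 24760311) encodes a lipid-anchored neutrophil protein that binds PECAM1 on endothelium. It measured 4713 and 5063 CPM in BM Gr-1hi, 2016 and 3036 CPM in SP Gr-1hi, 371 and 331 CPM in SP Gr-1lo, and 186 and 174 CPM in BM Gr-1lo. The tissue differences mirrored each other, with a log2 FC of -0.95 in Gr-1hi cells (SE 0.18, adjusted p = 0.00506) and 0.96 in Gr-1lo cells (SE 0.18, adjusted p = 0.0160), each just under the 2-fold limit. *Itgb2l* (ENSMUSG00000000157, chromosome 16 from 96422288 to 96443619) encodes a protein like the integrin beta 2 chain. Its levels were 1629 and 1676 CPM in BM Gr-1hi, 539 and 976 CPM in SP Gr-1hi, 88.3 and 87.6 CPM in SP Gr-1lo, and 40.3 and 44.4 CPM in BM Gr-1lo. It was the single gene of the set to pass the 2-fold rule in both subsets, at -1.13 in Gr-1hi cells (SE 0.23, adjusted p = 0.00836) and 1.05 in Gr-1lo cells (SE 0.23, adjusted p = 0.0404). The call in Gr-1hi cells was lost in 3 of 16 alternatives, among them without library 5 (-0.84), and the call in Gr-1lo cells in 8 of 16, among them without any 1 of libraries 7 to 12, with adjusted p up to 0.209.

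*Ceacam10* (ENSMUSG00000054169, chromosome 7 from 24777206 to 24784657), a secreted member of the carcinoembryonic antigen family, was the least abundant and the most confined to Gr-1hi cells. It measured 184 and 195 CPM in BM Gr-1hi, 96.0 and 113 CPM in SP Gr-1hi, 2.22 and 2.05 CPM in SP Gr-1lo, and 0.533 and 1.11 CPM in BM Gr-1lo. The BM Gr-1lo values rest on 26 and 59 counts, above the limit that a count of 0 allows. *Ceacam10* was lower in SP Gr-1hi (log2 FC -0.86, SE 0.19, adjusted p = 0.0101) and higher in SP Gr-1lo (1.35, SE 0.26, adjusted p = 0.0210). The Gr-1lo value of *Ceacam10* was 0.93 without library 11 and 1.99 without library 12, and its call was lost in 6 of 16 alternatives, among them without library 7, 8 or 11 and without libraries 5 and 7 (adjusted p = 0.120).

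*Anxa1* (ENSMUSG00000024659, chromosome 19 from 20373428 to 20390944) encodes annexin A1, a protein of neutrophil granules and cytosol that signals through formyl peptide receptors. Its levels were 4881 and 6049 CPM in BM Gr-1hi, 2813 and 3904 CPM in SP Gr-1hi, 642 and 569 CPM in SP Gr-1lo, and 398 and 382 CPM in BM Gr-1lo. It fell by 0.70 on the log2 scale in SP Gr-1hi (SE 0.17, adjusted p = 0.0137), and its log2 FC of 0.64 in Gr-1lo cells (SE 0.17, adjusted p = 0.0721) did not pass. *Chil3* (ENSMUSG00000040809, chromosome 3 from 106147554 to 106167564) encodes Ym1, a chitinase-like lectin that immature neutrophils and some monocytes and macrophages make. It measured 3689 and 3927 CPM in BM Gr-1hi, 1508 and 4048 CPM in SP Gr-1hi, 3602 and 2676 CPM in SP Gr-1lo, and 3308 and 2677 CPM in BM Gr-1lo. No comparison passed for *Chil3*, and its intervals were wide, reaching from -1.48 to 0.57 for SP against BM in Gr-1hi cells and from -0.95 to 1.09 in Gr-1lo cells. *Chil4*, a near-identical gene beside it, was read at 2.82% to 3.39% of the *Chil3* counts in every library, and reads of the pair may be split uncertainly.

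In Gr-1hi cells, the question was whether spleen and marrow cells of the same gate differ. All 10 genes had a lower mean in SP than in BM, with means from 0.458 (*Itgb2l*) to 0.774 (*Hp*) of the BM mean. The decrease passed an adjusted p of 0.05 for 8 genes, all but *Ltf* and *Chil3*, where 13.9% of all genes tested were lower at that limit. With an FC of at least 2 required as well, *Itgb2l* alone was lower, against 1.48% of all genes, and no member was higher, against 14.0%. The median log2 FC of the set was -0.80, and that of all genes 0.03. The libraries did not overlap for 9 genes, all but *Chil3*, where 31.9% of all genes were lower without overlap. This comparison leaned on library 5, which held the lowest Gr-1hi value of all 10 genes, between 32.6% and 74.6% of the BM mean, while library 6 was at 59.1% to 106%. The log2 FCs of the members ran from -1.69 (*Itgb2l*) to -0.50 (*Hp*) without library 6. Without library 5 they ran from -0.84 (*Itgb2l*) to 0.0082 (*Chil3*), each short of 2-fold. At an adjusted p of 0.05 alone, 5 members were lower without library 9 or library 10 and 3 without libraries 5 and 7.

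In Gr-1lo cells the spleen was higher. The means of all 10 genes were above the BM mean, from 1.01-fold for *Hp* to 4.07-fold for *Ltf*. The 2-fold rule called 5 genes higher (*Ltf*, *Ngp*, *Ceacam10*, *Lcn2* and *Itgb2l*), against 3.84% of all genes, and 0 lower, against 0.215%. *Cd177* also passed an adjusted p of 0.05, which makes 6 genes at any FC, against 4.88% of all genes. The median log2 FC was 1.02, against -0.01 for all genes, and 8 genes did not overlap, against 27.1% of all genes. The 2-fold rule called 3 genes without library 7 and 2 without library 8, 11 or 12, and 4 without libraries 5 and 7. *Ltf* passed without each library in turn.

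**Figure D2:**
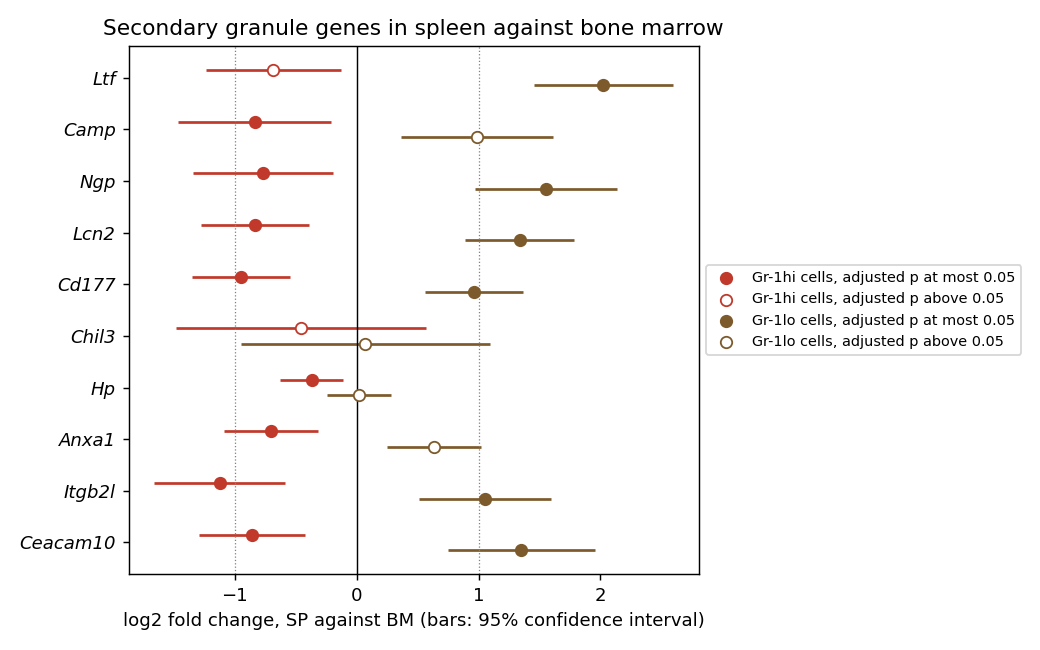
Log2 FC of SP against BM for each gene in Gr-1hi cells and in Gr-1lo cells, with 95% confidence intervals from the fit as bars and filled points where the adjusted p was at most 0.05. Points for Gr-1hi cells lie left of 0 and, apart from *Chil3* and *Hp*, points for Gr-1lo cells lie well right of it, with *Ltf* at 2.02.

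The subset comparison asked how far these transcripts belong to the Gr-1hi gate. In BM, 9 genes were higher in Gr-1hi cells at an FC of at least 2 and an adjusted p of at most 0.05, all but *Chil3*, against 24.2% of all genes. The stricter 8-fold rule, which also asks for an adjusted p below 0.01, kept 8 of them, all but *Hp*, against 6.56% of all genes. *Ceacam10* had the largest log2 FC of the set at 7.83 (SE 0.27, adjusted p = 1.41e-07), followed by *Ltf* at 6.01 (SE 0.30, adjusted p = 5.06e-07), *Itgb2l* at 5.29, *Lcn2* at 5.02, *Cd177* at 4.77 and *Ngp* at 4.74. *Anxa1* at 3.81 and *Camp* at 3.43 were nearer the limit. *Chil3* had a log2 FC of 0.35 (95% confidence interval -0.68 to 1.37, adjusted p = 0.480), although both BM Gr-1hi libraries lay above both BM Gr-1lo libraries. The count of 8 was unchanged without each library in turn.

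In SP the same 9 genes were higher in Gr-1hi cells by at least 2-fold, against 22.3% of all genes, but only *Ceacam10* (log2 FC 5.62, SE 0.24), *Ltf* (3.30, SE 0.26) and *Itgb2l* (3.11, SE 0.25) exceeded 8-fold, against 4.44% of all genes. *Lcn2* and *Cd177* lay just outside at 2.85 each. *Anxa1* (2.47), *Ngp* (2.42), *Camp* (1.602) and *Hp* (1.46) were further below the limit, which is 3 on the log2 scale. The median log2 FC was 2.66 in SP and 4.75 in BM, against -0.09 and -0.18 for all genes. *Chil3* had a log2 FC of -0.18 in SP (adjusted p = 0.724), which was -1.08 without library 6 (adjusted p = 0.00219) and 0.57 without libraries 5 and 7 (adjusted p = 0.0182). The count above 8-fold was 1 without library 6, and 5 without library 5 or without libraries 5 and 7.

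The interaction of tissue and subset tests that difference directly, as the log2 FC of Gr-1hi against Gr-1lo in SP minus that in BM. It was called lower for 8 of the 10 genes, against 2.00% of all genes, and higher for 0, against 7.74%. *Ltf* led with -2.71 (SE 0.34, adjusted p = 0.00377), so that its subset ratio was 64.5 in BM and 9.88 in SP. *Ngp* (-2.32), *Ceacam10* (-2.21), *Itgb2l* (-2.18), *Lcn2* (-2.17), *Cd177* (-1.92), *Camp* (-1.83) and *Anxa1* (-1.34) followed, with adjusted p between 0.00362 and 0.0191. *Hp* (-0.39, adjusted p = 0.137) and *Chil3* (-0.52, 95% confidence interval -1.97 to 0.92, adjusted p = 0.598) did not pass. The count was 7 to 9 without each library in turn, 7 without libraries 5 and 7, and 6 with no filter on low counts. *Camp* was the least steady of the 8 and lost its call in 5 of 14 alternatives.

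Expressed as a share, the Gr-1lo mean was a median of 3.71% of the Gr-1hi mean in BM and 16.0% in SP over the 10 genes. The share went between tissues from 0.434% to 2.04% for *Ceacam10*, from 1.55% to 10.1% for *Ltf*, from 3.74% to 18.7% for *Ngp* and from 9.28% to 33.0% for *Camp*. *Chil3* was near parity in both, at 78.6% and 113%. Neutrophil genes outside the set did not share 1 ratio: *Ly6g* went from 0.566% to 1.69%, *S100a8* from 4.25% to 13.3% and *S100a9* from 3.22% to 10.9%. *Cxcr2*, the chemokine receptor of mature neutrophils, was 173.6-fold higher in Gr-1hi cells in BM and 99.97-fold in SP. *Retnlg* stood at 0.282% and 0.319%, and *Csf3r*, the receptor for G-CSF, at 5.70% and 4.38%. How far Gr-1hi cells in the Gr-1lo gate contribute to these shares was not tested.

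**Figure D3:**
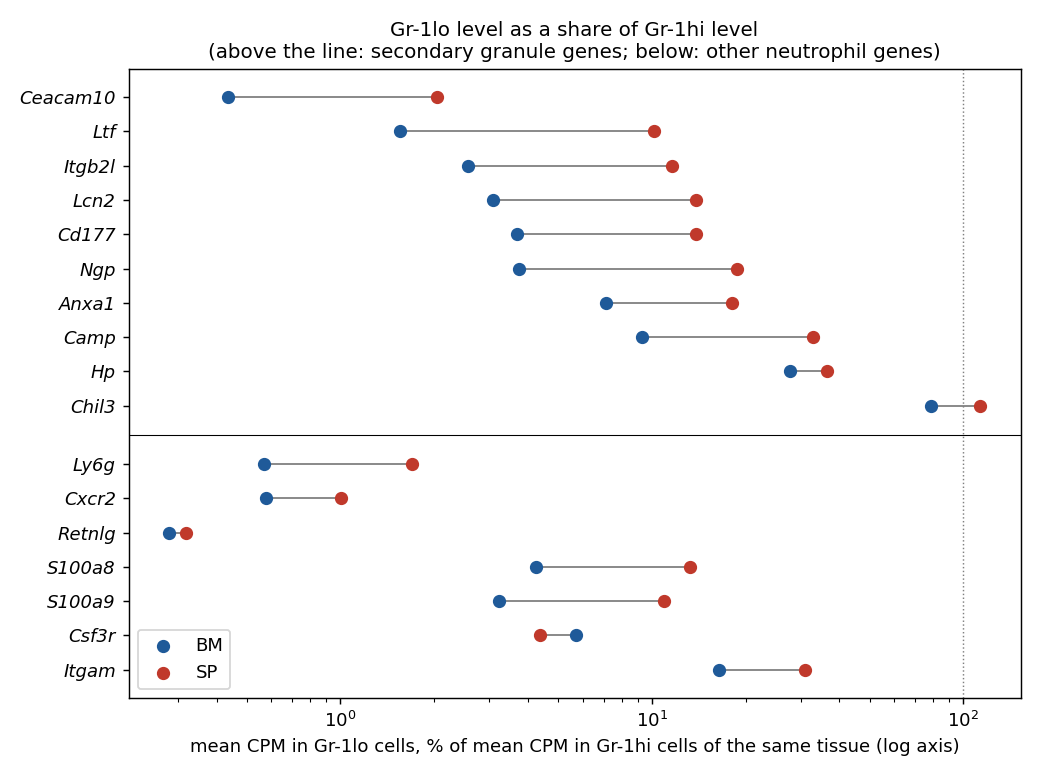
Mean CPM in Gr-1lo cells as a percent of the mean CPM in Gr-1hi cells of the same tissue (log axis), in BM and SP, for the 10 secondary granule genes and for 7 other genes of neutrophils. Shares are higher in SP for all 10 genes, from 0.434% to 2.04% for *Ceacam10* at the low end, while *Retnlg* scarcely moved and *Csf3r* was lower in SP.

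Per length, in TPM (counts scaled by exon length and library), *Ngp* stood above all other members in 3 groups, with 39847 ± 2790 TPM in BM Gr-1hi (SD, n = 2), 27772 ± 10385 in SP Gr-1hi and 7739 ± 313 in SP Gr-1lo. It ranked as the 3rd most abundant of all genes by TPM in each of the 4 Gr-1hi libraries. *Camp* and *Ltf* followed in BM Gr-1hi at 11326 ± 1193 and 10320 ± 546 TPM, and their libraries overlapped there and in SP Gr-1hi. *Lcn2* came next in BM Gr-1hi at 8188 ± 22.8 TPM. In BM Gr-1lo the order began with *Chil3* at 5652 ± 916 TPM, above *Ngp* at 2750 ± 175, *Camp* at 1941 ± 277 and *Hp* at 1578 ± 149. *Ltf* fell in that order from the third place in BM Gr-1hi to the seventh in BM Gr-1lo, at 294 ± 40.2 TPM. *Itgb2l* and *Ceacam10* were the lowest members in every group.

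For each member, the genes with the nearest pattern over the 8 libraries were found by the root mean square (RMS) difference of centred log2 CPM, among 9751 genes of at least 10 CPM in some group. These are descriptions over 8 libraries that share 4 groups. *Cd177* was closest to *Syne1* (0.08), *Adpgk* (0.11) and *S100a8* (0.14), and *Lcn2* to *Trp53inp2* (0.14), *Cd177* (0.16) and *Syne1* (0.16). *Itgb2l* was nearest to *Trp53inp2* (0.14), *Fmnl2* (0.16) and *Syne1* (0.18). *Syne1* encodes a giant protein of the nuclear envelope. *Ngp* was closest to *Inhba* (0.08), which encodes the activin beta A chain, then *Slco4c1* (0.22) and *Lcn2* (0.23). *Ltf* had no close match, the nearest being *St3gal5* (0.31), *Il18r1* (0.31), a receptor gene for IL-18, and *Gm15675* (0.34). *Camp* was nearest to *Abca13* (0.18), *Erg* (0.18) and *4930438A08Rik* (0.19), *Anxa1* to *Hip1r* (0.12), *Sept1* (0.12) and *Wfdc21* (0.12), and *Ceacam10* to *Slc2a3* (0.17), *Gabbr1* (0.26) and *Ly6g* (0.26). *Hp* was closest to *Alox5ap* (0.07), *Gm14548* (0.07) and *Snx13* (0.08), and *Chil3* to *Chil4* (0.09), *Lpcat1* (0.19) and *Pafah2* (0.21). *Alox5ap* encodes the protein that presents arachidonate to 5-lipoxygenase. Of the 30 pairings, 2 were with another member.

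The members lie on 7 chromosomes, with 3 on chromosome 9 and 2 on chromosome 7. *Camp* and *Ngp* are 570129 bases apart and *Ngp* and *Ltf* 596258 bases apart. Between *Camp* and *Ltf* lie 22 tested genes. Of these, 5 were higher in BM Gr-1hi cells by the 8-fold rule, against 6.56% of all genes. A lower interaction was called for 2, against 2.00%. The member *Ngp* is in both counts. The genes beside *Ngp*, namely *Ptpn23* and *Klhl18*, had interactions of -0.35 and -0.41 that were not called, and those beside *Camp*, *Nme6* and *Cdc25a*, of -0.32 and -0.60, not called either. *Gm10030*, beside *Ltf*, was called higher in Gr-1hi cells of both tissues, with means of at most 2.31 CPM, and *Ccrl2*, on its other side, rose in SP Gr-1hi cells (log2 FC 2.14). *Cd177* and *Ceacam10* are 16894 bases apart on chromosome 7 with no tested gene between them. *Lypd11*, on the other side of *Cd177*, had an interaction of -2.50 that was called, with means of 0.213 to 4.71 CPM. The coding model *Gm49948* overlaps *Itgb2l*, at means of at most 0.562 CPM, and *Gm32358* lies beside it at means of at most 0.331 CPM. *1110008P14Rik* and *Ptges2* beside *Lcn2*, and *Txnl4b* and *Dhodh* beside *Hp*, had no called interaction. Nor had the nearest tested genes *Gm4540*, 112461 bases from *Chil3*, and *Gm9844*, 77555 bases from *Ceacam10*. The nearest tested genes to *Anxa1* were *Gm23238*, 1640523 bases away, and *C730002L08Rik*, 19599 bases away. Neither had a called interaction, at means of at most 0.620 CPM.

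A list of 18 further genes of specific and gelatinase granules, 17 of them tested, showed part of the same pattern. Of these, 10 were called higher in BM Gr-1hi cells than in BM Gr-1lo cells, against 6.56% of all genes. In SP 7 were called higher in Gr-1hi cells, against 4.44%. A lower interaction was called for 7, against 2.00%, and the median over the list was -1.01. *Mmp8*, the neutrophil collagenase, was lower in SP Gr-1hi cells (log2 FC -1.26, adjusted p = 0.00740), as was *Olfm4*, named because only these 2 passed. *Mmp9*, the gelatinase, had log2 FCs of 8.21 in BM and 7.84 in SP between subsets and an interaction of -0.38 (adjusted p = 0.601). *Lyz2*, the lysozyme that monocytes also make, had log2 FCs of 0.38 in BM and -0.40 in SP between subsets, and neither passed. In SP Gr-1lo cells 1 gene of the list was called higher, where 3.84% of all genes were. It was *Chi3l1* (*Chil1* in the table), a gene named because it alone passed there.

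Of 6 primary granule genes, 4 were lower in Gr-1hi than in Gr-1lo cells by the 8-fold rule in both tissues. Of all genes, 10.1% were lower by that rule in BM and 2.93% in SP. *Cd63*, which encodes a tetraspanin of granule membranes and is named after its values were seen, was higher in Gr-1hi cells, with log2 FCs of 1.93 in BM and 1.06 in SP. *Mpo*, which encodes myeloperoxidase, differed by -6.22 in BM and -7.05 in SP on the log2 scale, *Elane*, neutrophil elastase, by -7.53 and -8.31, and *Prtn3*, proteinase 3, by -6.84 and -6.61. The interaction was called for 0 of 6. SP was lower than BM for 4 of 6 in Gr-1hi cells, against 1.48% of all genes. In Gr-1lo cells it was lower for 1 of 6, against 0.215%. The summed level of the 6 genes was 3187 to 3235 CPM in BM Gr-1lo and 1176 to 2108 CPM in SP Gr-1lo, so that the secondary granule set was higher in spleen Gr-1lo cells while the primary granule set had the lower sum there. All 8 cell cycle genes were higher in Gr-1lo than in Gr-1hi cells by at least 2-fold in both tissues, and 0 had a called interaction. By that rule 33.1% of all genes were higher in Gr-1lo cells in BM and 27.4% in SP.

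Of 9 transcription factors of granulocyte formation, 2 had a called interaction, both lower, against 2.00% of all genes. They were *Cebpe* and *Klf5*, the latter named after its values were seen. *Cebpe*, whose product C/EBP epsilon is needed for secondary granule genes, was at 144 and 154 CPM in BM Gr-1hi, 63.5 and 114 CPM in SP Gr-1hi, 56.3 and 46.3 CPM in SP Gr-1lo, and 33.6 and 32.2 CPM in BM Gr-1lo. It thus followed the order of the members, whose single steps 31.9%, 40.6% and 27.1% of all genes met without overlap. *Cebpe* had a log2 FC of 2.18 between subsets in BM and 0.79 in SP, and an interaction of -1.38 (SE 0.34, adjusted p = 0.0314). For SP against BM it was -0.74 in Gr-1hi cells, under the 2-fold limit, and 0.64 in Gr-1lo cells, which did not pass. Whether *Cebpe* has a part in the levels of the members was not tested. *Gfi1*, a repressor of earlier stages, passed no test in any comparison, with an interaction of -0.30 (adjusted p = 0.800). *Spi1*, which encodes PU.1, and *Stat3* were higher in Gr-1hi cells of both tissues (log2 FC 1.52 and 1.17 in BM) with no called interaction. *Cebpb*, the factor of emergency granulopoiesis, rose in SP Gr-1hi cells (1.08, adjusted p = 0.0155).

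Among genes for known partners of the products, the formyl peptide receptors stood beside their ligand *Anxa1*. *Fpr1*, *Fpr2* and *Fpr3* had interactions of -1.28, -1.35 and -1.55, all called, and were 5.78, 4.27 and 4.39 log2 units higher in Gr-1hi than in Gr-1lo cells of BM. *Lrp1*, a receptor that takes up lactoferrin, was higher in Gr-1lo cells (log2 FC -5.30 in BM and -4.82 in SP). *Pecam1*, the partner of CD177, lay between 24.9 and 37.6 CPM in the 4 group means. *Cd163*, which takes up haptoglobin with haemoglobin, and *Slc22a17*, a receptor for lipocalin 2, had group means of at most 1.03 and 0.325 CPM, and *Lrp2* was not tested. Among paralogs, *Ceacam1* and *Ceacam2* had log2 FCs of 2.62 and 2.57 between subsets in BM, where *Ceacam10* had 7.83, and interactions of -1.25 and -1.19 that were called. *Ceacam1* and *Ceacam2* moved nearly alike in the other comparisons too, at 1.37 and 1.38 between subsets in SP. They may not be separate observations, and whether reads were shared between them was not tested. *Itgb2* had an interaction of -0.93, under the 2-fold limit. No difference between a paralog and a member was tested. *Anxa2* (-0.17), *Anxa3* (-0.74) and *Anxa5* (-0.54) had no called interaction, *Chil4* had -0.70 and was not called, and *Chia1* was not tested.

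Genes of mature neutrophils did not move together between tissues. *S100a8* and *S100a9*, which encode calprotectin, each had a log2 FC of -0.68 for SP against BM in Gr-1hi cells and interactions of -1.65 and -1.77. *Csf3r* had the opposite sign in Gr-1hi cells, 0.86 (adjusted p = 0.00565), with an interaction of 0.38 (adjusted p = 0.297). *Ly6g* had an interaction of -1.59 (adjusted p = 0.0456) and *Itgam*, which encodes CD11b, of -0.91, under the 2-fold limit. Of the 10 genes of that list, 3 had a called interaction, all lower, against 2.00% of all genes.

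Markers of other cells moved with tissue beside the members. In Gr-1hi cells, 10 of 10 B cell genes were higher in SP, with summed levels of 360 to 537 CPM against 16.3 to 19.9 CPM in BM, as were 4 of 5 T cell, 4 of 4 tested plasma cell, 5 of 6 erythroid and 4 of 6 splenic macrophage genes. In Gr-1lo cells, 9 of 10 B cell genes were higher in SP, with sums of 66.7 to 83.8 CPM against 8.07 to 9.90 CPM, and so were 5 of 5 T cell, 4 of 4 plasma cell, 6 of 6 erythroid and 4 of 6 macrophage genes. The erythroid sum was 217 CPM in library 5 and 731 CPM in library 6. *Tnfrsf17*, a plasma cell gene, was at 0 in both BM Gr-1hi libraries. By the same rule 14.0% of all genes were higher in SP Gr-1hi cells and 3.84% in SP Gr-1lo cells. Of 9 monocyte genes, 3 were higher in SP Gr-1hi cells, 1 was lower at an adjusted p of 0.05 alone, and 0 passed in Gr-1lo cells. The monocyte sum was lower in SP Gr-1hi cells, at 1074 to 1195 CPM against 1332 to 1769 CPM in BM Gr-1hi. Of 5 eosinophil genes, 2 were higher and 1 lower in SP Gr-1hi cells and 0 passed in Gr-1lo cells. Their part in the tissue differences of the members was not tested.

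**Figure D4:**
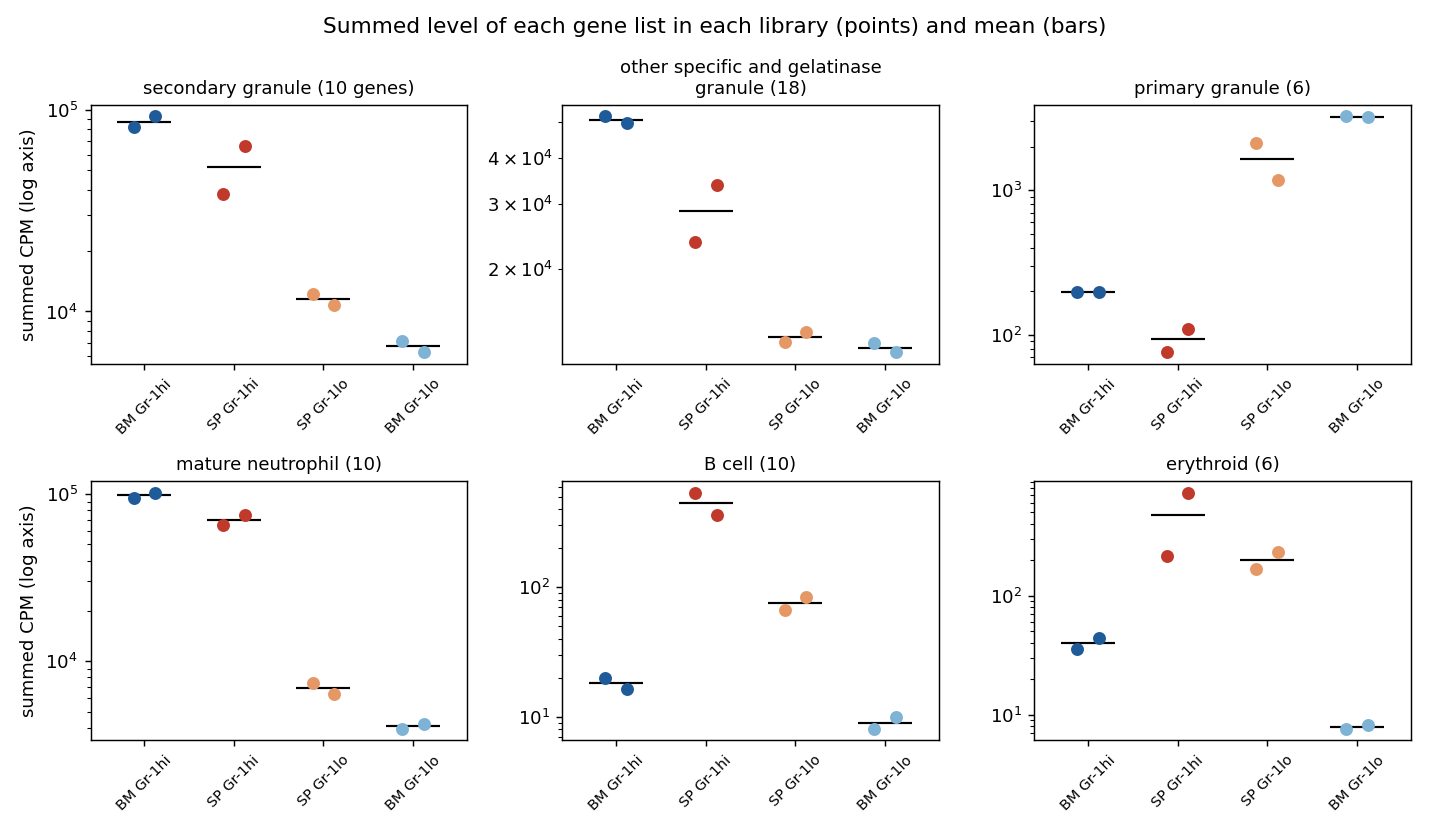
Summed CPM (log axis) of 6 gene lists in each library, with 1 point per library and a bar at the mean. The secondary granule sum falls from 82150 to 92625 CPM in BM Gr-1hi to 6266 to 7177 CPM in BM Gr-1lo, the primary granule sum is highest in BM Gr-1lo, and the B cell and erythroid sums are higher in both SP groups than in BM.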

How the data were processed

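Stranded mRNA libraries of the 8 sorted samples were sequenced, trimmed with Sickle after FastQC, aligned with STAR to GRCm38 and counted per gene with featureCounts by the authors, who deposited 1 table of raw counts for 54188 genes. The counts were tested with edgeR 4.0.16 (R 4.3.3) by the robust quasi-likelihood test after TMM scaling and edgeR's default filter on low counts, in 1 fit of all 8 libraries with 4 residual degrees of freedom, with Benjamini-Hochberg adjustment over 17650 genes. Limits followed the study: 2-fold with an adjusted p up to 0.05 for tissue comparisons and the interaction, and over 8-fold with an adjusted p under 0.01 for subset comparisons. The study itself tested quantile-normalized TPM, which was run here as an alternative with the deposited counts and GENCODE M21 exon lengths. CPM were scaled by TMM, and TPM used exon lengths. The labels do not say that the 2 libraries of a group came from separate mice. The study's methods call them biological replicates, and the p-values measure the spread between these libraries. The 10 genes and all gene lists were chosen with earlier results of these data known. Named beside them were the 3 most abundant genes of each other list, partners, paralogs, *Cebpe*, *Gfi1*, the nearest tested neighbours, the 3 genes of most similar pattern and the sort markers. Alternatives were RLE and upper-quartile scaling, TMM without the 10 genes, no filter, DESeq2 1.42.0, only the 4 libraries compared, each library left out, and libraries 5 and 7 left out.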

Additional observations from a re-analysis of the deposited data

Results flagged for a closer look

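Counted here were 41 tested genes: the members, partners, paralogs, *Cebpe*, *Gfi1*, *Ly6g*, *Itgam* and *Csf1r*, and the 3 most abundant genes of the other granule, transcription factor and mature neutrophil lists. Other neighbours and genes named after their values were seen were left out, among them *Lypd11* and *Klf5*, whose interactions were called. The contrast of Gr-1hi with Gr-1lo cells was compared between SP and BM by edgeR's test of the interaction. It differed (adjusted p of at most 0.05 and at least 2-fold) for 17 of the 41, where 2.00% of all genes were called lower and 7.74% higher. Of the 10 secondary granule genes, 8 were among them, all with a smaller log2 contrast in SP: *Ltf* by -2.71, *Ngp* by -2.32, *Ceacam10* by -2.21, *Itgb2l* by -2.18, *Lcn2* by -2.17, *Cd177* by -1.92, *Camp* by -1.83 and *Anxa1* by -1.34. The other 9 had the same sign. They were the calprotectin genes *S100a9* (-1.77) and *S100a8* (-1.65), *Ly6g* (-1.59), the formyl peptide receptors *Fpr3* (-1.55), *Fpr2* (-1.35) and *Fpr1* (-1.28), the transcription factor *Cebpe* (-1.38), and the paralogs *Ceacam1* (-1.25) and *Ceacam2* (-1.19). *Ceacam1* and *Ceacam2* moved nearly alike throughout and may not be separate observations.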

How the results depend on the processing

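No paired analysis was possible because the labels give each library a number of its own, shared by no other. For SP against BM in Gr-1hi cells, 2727 genes were called in all, 685 with quantile-normalized TPM, 1617 without libraries 5 and 7, and 1715 to 3518 without each library in turn. The members called lower, 1 in the fit reported, were 2 with RLE scaling, 2 with DESeq2, 0 with quantile-normalized TPM, 0 without libraries 5 and 7, and 0 to 9 without each library in turn. Members lower at an adjusted p of 0.05, a count added after seeing the data, were 8, then 4 with only the 4 libraries compared, 4 with quantile-normalized TPM, 3 without libraries 5 and 7, and 5 to 10 without each library in turn. In Gr-1lo cells 716 genes were called, 1077 with no filter, 289 with quantile-normalized TPM, and 389 to 785 without each library in turn. The members called higher there were 5, and 2 to 6 without each library in turn, and those at an adjusted p of 0.05 were 6, and 2 to 8. Between subsets, quantile-normalized TPM called 636 genes in SP, where 1301 were called, and 1346 in BM, where 2946 were called. In SP the members above 8-fold were 3, then 5 without libraries 5 and 7 and 1 to 5 without each library in turn, and those lower by 2-fold were 0, and 0 to 1. The interaction called 1719 genes, 819 without libraries 5 and 7 and 915 to 2488 without each library in turn. Signs turned for *Chil3* and *Hp* only among the 10 genes. The log2 FC of *Chil3* for SP against BM in Gr-1hi cells was 0.10 without libraries 5 and 7 and -1.41 to 0.0082 without each library in turn. In Gr-1lo cells it was -0.18 with quantile-normalized TPM, -0.17 without libraries 5 and 7, and -0.16 to 0.27 without each library in turn. Between subsets it was 0.57 in SP without libraries 5 and 7, -1.08 to 0.34 there without each library in turn, -0.20 in BM with quantile-normalized TPM, and its interaction was 0.28 without libraries 5 and 7. The log2 FC of *Hp* in Gr-1lo cells was -0.039 with RLE scaling, -0.051 with DESeq2, -0.072 with quantile-normalized TPM, -0.13 without libraries 5 and 7, and -0.11 to 0.15 without each library in turn. The causes were not tested. Of the values of the 10 genes under the alternatives, 143 of 160 for SP against BM in Gr-1hi cells, 125 of 160 in Gr-1lo cells, 149 of 160 and 158 of 160 between subsets in SP and BM, and 131 of 140 for the interaction kept direction and side of the threshold. RLE scaling moved the median of all genes by 0.13 in SP and 0.15 in BM between subsets. Where 1 library of a group was left out, the lone library was assumed to vary like the other groups.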
